A study of Mus musculus with 32 samples.

Results

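The Kelch-like (*Klhl*) and Kelch repeat and BTB domain (*Kbtbd*) genes were followed in the tibialis anterior (TA) muscle of *Mtm1* KO mice and their WT controls from birth to the end stage of disease. Members were all genes whose symbol is Klhl or Kbtbd followed only by a number, with at least 10 counts in at least 4 of the 32 RNAseq libraries. Of 45 such symbols 44 were kept, 35 *Klhl* and 9 *Kbtbd*, among 54838 genes in the table. *Klhl1* was dropped, with at most 2 counts in any library. The members lie on 16 chromosomes, 4 of them on X (*Klhl13*, *Klhl15*, *Klhl34* and *Klhl4*), and 39 had at least 10 counts in every library.

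Poly(A) RNA was sequenced from 4 WT and 4 *Mtm1* KO muscles per age, at P1, P14, P21 and P35, which makes 8 groups. Both genotypes were on the C57BL6/J background with no treatment. The KO allele is a germline deletion targeted to exon 4 of the X-linked *Mtm1* gene, first made in a 129 substrain, and KO animals were males compared with WT littermates. The model stays free of symptoms until weaning, shows its first deficits at about P21 and reaches its end stage at about P35.

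Proteins of this family carry a BTB domain that binds the scaffold cullin 3 (CUL3) and kelch repeats that form a propeller which holds a substrate. Together with the RING protein RBX1 they form E3 ubiquitin ligases, so that the choice of adaptor sets which protein is marked with ubiquitin. In skeletal muscle several members are tied to the thin filament of the sarcomere, and mutations of KLHL40, KLHL41 and KBTBD13 cause nemaline myopathy in humans. Other members have roles that are not particular to muscle. KLHL9, KLHL13 and KLHL21 direct Aurora B in dividing cells. KLHL12 acts on SEC31 in the coat of secretory vesicles, and KLHL3 targets WNK kinases.

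Library totals ranged from 49321035 to 85631408 counts. *Mtm1* itself was lower in every KO library than in every WT library of the same age, at 2.32 to 3.91 CPM, counts scaled to a common library size, against 5.26 to 6.02 at P1. The fibre markers defined the tissue in all groups, with none of 9 at 0. Their sum was 149500 to 210500 CPM for WT and 92810 to 123500 CPM for KO at P35, and 189900 to 248200 against 161100 to 178900 CPM at P21. The 12 keratinocyte markers summed to 2012 to 7284 CPM at P1, when the fibre markers summed to 20870 to 41120 CPM, and at P35 to 14.7 to 16.8 CPM for WT and 43.7 to 60.3 CPM for KO. The 5 macrophage markers summed to 33.0 to 46.8 CPM for WT and 46.2 to 64.7 CPM for KO at P35, and to 34.1 to 38.4 and 44.8 to 59.1 CPM at P21. The 6 endothelial markers summed to 554 to 850.5 CPM for WT and 437 to 532 CPM for KO at P21. At P35 they overlapped between genotypes, at 318.5 to 599.3 CPM for WT and 285.2 to 357 CPM for KO. Mitochondrial genes took 9.75 to 12% of counts in WT and 8.21 to 8.78% in KO at P21, and 12.4 to 17.9% and 10.3 to 10.5% at P35. The 4 satellite cell markers summed to 22.5 to 25.5 CPM for WT and 18.7 to 20.6 CPM for KO at P35, and the 4 adipocyte markers to 1.98 to 8.35 and 12.7 to 48.3 CPM. The part of these differences in the results below was not tested, and in bulk muscle fewer cells of a type and less RNA per cell cannot be told apart.

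A handful of members supplied most of the family's RNA. Levels of different genes were compared as CPM per kb of exon, using CPM scaled by TMM (a scaling that assumes most genes do not differ) over all 32 libraries. In WT at P35, *Klhl41* stood first with 274.8±23.8 CPM per kb (SD, n=4). Its protein binds nebulin and NRAP on the thin filament. It was followed by *Klhl33* with 87.5±14.0, *Klhl31* with 63.4±8.35, *Klhl21* with 62.6±7.62, *Klhl40* with 46.3±7.19 and *Klhl30* with 42.6±14.1 CPM per kb. *Klhl41* lay apart from all others, whereas *Klhl31* and *Klhl21*, and likewise *Klhl40* and *Klhl30*, lay within each other's spread. The top 5 members held 71.1% of the summed level per kb.

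The promoters of *Klhl41* and *Klhl40* are shown because they are the most abundant member and the member called higher in KO. The lines give the 250 bases before the RefSeq start (GRCm38.p6), with the letters CAGCTG (an E-box of the kind bound by myogenic factors, the same on both strands) and a MEF2 site in capitals. *Klhl41* (ENSMUSG00000075307) lies on the plus strand and its window is chr2:69669870-69670119, with no annotated exon in it. *Klhl40* (ENSMUSG00000074001) also lies on the plus strand, its window is chr9:121777357-121777606, and all 250 bases lie in an exon of the antisense gene *Gm47108*, whose median was 7 counts against 8909 for *Klhl40*.
Klhl41: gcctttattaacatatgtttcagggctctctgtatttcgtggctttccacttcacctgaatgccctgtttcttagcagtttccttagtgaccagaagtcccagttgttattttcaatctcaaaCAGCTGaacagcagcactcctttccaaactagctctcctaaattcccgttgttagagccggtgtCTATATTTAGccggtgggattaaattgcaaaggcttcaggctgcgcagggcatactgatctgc
Klhl40: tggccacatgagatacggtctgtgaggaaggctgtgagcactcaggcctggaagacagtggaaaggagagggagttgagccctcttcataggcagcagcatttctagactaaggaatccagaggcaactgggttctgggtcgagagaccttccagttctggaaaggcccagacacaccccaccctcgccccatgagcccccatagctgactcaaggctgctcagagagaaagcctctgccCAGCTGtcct

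The E-box of *Klhl41* begins 127 bases and its MEF2 site 63 bases before the start, and the E-box of *Klhl40* begins 10 bases before. RefSeq promoters (250 bases before to 50 after the start) were matched for 36 members, 48 windows in all. Windows on chromosome 18, where *Klhl14* lies, were left out for the members but not for all windows. The E-box letters stood in 11 of the 48 windows (10 members) and in 16.3% of all 32851 windows, the MEF2 site in 3 windows (3 members) and 3.19%, and a CArG box in 0 windows and 1.63%.

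At P1 the order in WT was another one. *Klhl41* also stood first, at 154.8±18.0 CPM per kb, and *Klhl40* was second at 41.2±6.51. *Klhl13* followed at 31.4±2.32 CPM per kb and *Klhl33* was at 0.635±0.347. In KO at P35 *Klhl41* reached 390.6±37.5 and *Klhl40* 90.6±13.5 CPM per kb, so *Klhl40* held the second place. *Klhl33* was at 34.6±10.8 CPM per kb there and *Klhl21* at 30.2±3.37. The top 5 members held 78.8% of the summed level per kb in that group.

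The 44 members summed to 1301±109 CPM for WT and 1296±197 CPM for KO at P1. At P35 the sums were 3051±106 and 2729±80.7 CPM, with the highest KO library at 2791 and the lowest WT library at 2950. Every KO library lay below every WT library on the TMM scale. With library totals the direction was the opposite, at 2264±62.2 CPM for WT (2204 to 2341) and 2724±95 CPM for KO (2628 to 2849), again without overlap. Whether the pool as a whole was lower or higher in KO at P35 thus depended on the scaling.

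**Figure D1:**
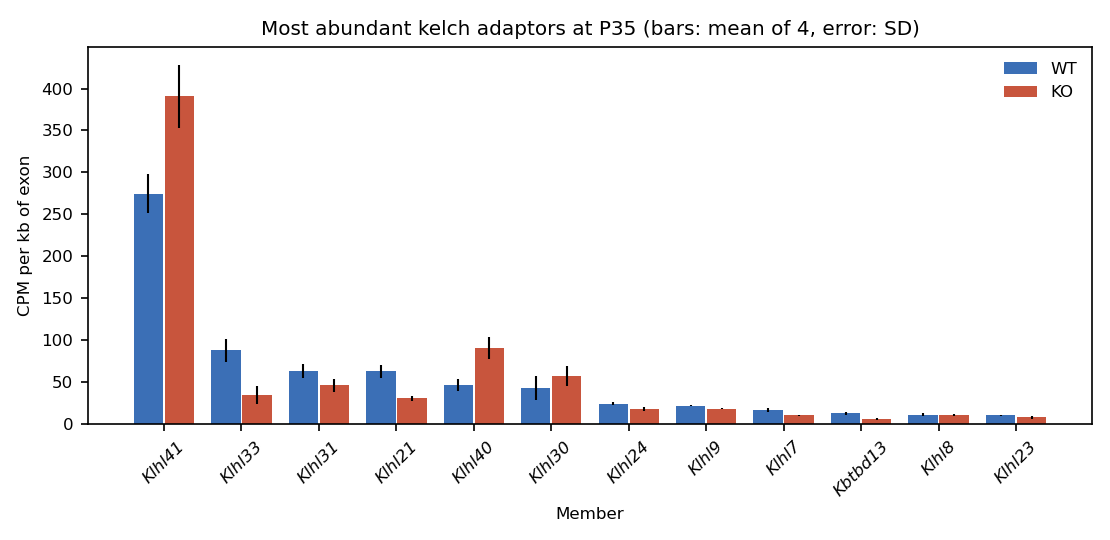
Mean level in CPM per kb of exon (vertical axis, linear from 0) of the 12 members with the highest level in WT at P35, for WT (blue) and *Mtm1* KO (red), with error bars giving the SD of 4 libraries. *Klhl41* and *Klhl40* stand higher in KO, at 390.6 against 274.8 and 90.6 against 46.3, and *Klhl33* and *Klhl21* lower, at 34.6 against 87.5 and 30.2 against 62.6.

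Between P1 and P14 several muscle adaptors rose in WT, led by *Klhl33*, and *Klhl13* fell. The summed fibre markers also rose in WT, from 31960 to 41120 CPM at P1 to 170300 to 219900 CPM at P14. How much of the adaptors' rise goes with this larger share of fibre RNA was not tested. A gene was called when edgeR's adjusted *P* was below 0.01 and it differed by more than 1.5-fold. By this rule 24 of 44 members were called, 17 higher and 7 lower at P14. The share over all genes tested was 53.5%, 24.2% higher and 29.3% lower, so in all members were called about as often as other genes. The median log2 fold change was 0.43 over the members and −0.09 over all genes, and the number of higher calls depended on the scaling. Scaling by library totals lowers the median of all genes by 0.78 in this step, to −0.87, with −0.35 over the members. It gives 8 members higher and 17 lower, against 8.93% and 56.1% of all genes. Of these, 8 and 7 were the ones called in the same direction by TMM. The 8 that were higher on both scalings were *Kbtbd12*, *Kbtbd13*, *Klhl24*, *Klhl30*, *Klhl31*, *Klhl33*, *Klhl34* and *Klhl8*.

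*Klhl33* made the widest move of the family. In WT it was at 6.76, 2.55, 1.97 and 4.71 CPM in the P1 libraries and at 643, 577, 735 and 894 CPM in the P14 libraries. All P14 libraries lay far above all P1 libraries, by 7.48 on the log2 scale (SE 0.368, adjusted *P*=5.87e-16).

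*Klhl31*, whose protein takes part in muscle development and binds filamin C, went from 50.8 to 76.6 CPM at P1 to 443 to 592 CPM at P14 (log2 fold change 2.86, SE 0.224, adjusted *P*=5.43e-12). *Kbtbd13* rose from 5.72±0.708 to 24.7±4.80 CPM (2.11 on the log2 scale, SE 0.168) and *Kbtbd12* from 5.78±0.529 to 22.1±1.55 CPM (1.93, SE 0.164). *Klhl30* rose from 36.8±4.97 to 120.1±3.08 CPM and *Klhl34* from 1.04±0.285 to 6.07±2.28 CPM. *Klhl24*, whose protein controls the turnover of intermediate filaments in skin and heart, rose from 107±8.11 to 339±4.35 CPM.

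*Klhl41* was at 343 to 450 CPM at P1 and 682 to 840 CPM at P14 (0.94, SE 0.119), but only 0.16 on the log2 scale when libraries were scaled by their totals, where it was not called. *Klhl40* was at 103±16.3 CPM at P1 and 146±9.22 CPM at P14 and was not called. *Klhl38* was at 10.4 to 16.2 CPM at P1 and 8.63 to 33.4 CPM at P14 and was not called either.

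The members that fell between P1 and P14 did so on both scalings. *Klhl13* fell from 124, 147, 129 and 134 CPM to 37.4, 39.7, 32.2 and 22.6 CPM (−2.02, SE 0.180, adjusted *P*=7.28e-11). *Klhl14* and *Klhl35*, which are 2 of the 7, were also lower (−2.44, SE 0.545, and −2.11, SE 0.452), at very low levels of 0.157±0.0331 and 0.346±0.0444 CPM at P1. Both passed the rule on counts through P1 alone, where 7 and 8 of 8 libraries had at least 10 counts, against 0 at each later age, so their fall and their place among the 7 were set by that rule and are given as a description. *Klhl14* had 12 to 22 counts per WT library at P1 and 0 in all 4 at P35, where up to 3 counts per library could have been missed. The other 4 were *Kbtbd11*, *Klhl22*, *Klhl29* and *Klhl3*, with log2 fold changes of −1.57 to −0.69.

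Later steps were smaller. From P14 to P21 in WT 5 of 44 members were called, 4 higher and 1 lower, with 6.83% of all genes called, 3.04% higher and 3.8% lower. *Kbtbd8* (1.24, SE 0.191), *Klhl34* (1.33, SE 0.314), *Klhl21* (0.88, SE 0.148) and *Kbtbd13* (0.59, SE 0.160) rose and *Klhl13* fell (−1.10, SE 0.179). KBTBD8 modifies the ribosome factors NOLC1 and TCOF1 in neural crest cells. From P21 to P35 2 members were called (4% of all genes, 2.23% higher and 1.77% lower), *Klhl21* up (0.76, SE 0.148) and *Klhl13* down (−0.71, SE 0.183).

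*Klhl21* and *Klhl13* were the members called in all 3 WT steps on the TMM scale, in opposite directions. With library totals the last fall of *Klhl13* (−0.79, adjusted *P*=0.0158) and the rise of *Kbtbd13* from P14 to P21 (0.42, adjusted *P*=0.0824) were not called. *Klhl21* stood at 47.8±5.55, 79.9±12.8, 147±19.3 and 250±30.4 CPM from P1 to P35, and *Klhl13* at 133±9.86, 33.0±7.57, 15.4±3.39 and 9.42±1.42 CPM. Both encode adaptors of the mitotic kinase Aurora B, whose gene *Aurkb* fell from 13.8±1.41 CPM at P1 to 4.13±1.39 CPM at P14 in the same WT libraries (−1.74, SE 0.375). The rise of *Klhl21* from P1 to P14 was not seen with library totals (−0.05), unlike the 2 later ones. *Klhl9*, which encodes the close partner of KLHL13, was at 52.5±5.45 CPM at P1 and 88.0±4.61 CPM at P14, called on the TMM scale alone.

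Over the whole span, 30 of 44 members differed between P35 and P1 in WT, 19 higher and 11 lower (63.5% of all genes, 28.4% higher and 35.1% lower). With library totals, which put the median of all genes at −1.18, 10 were higher and 22 lower. In KO the same span gave 30 called members, 17 higher and 13 lower (59.4% of all genes, 27.8% higher and 31.5% lower). Library totals put the median of all genes at −0.72 there and gave 11 and 16. *Klhl14* and *Klhl35* passed the rule on counts through P1 alone, so any fall of theirs in these spans was set by that rule. *Kbtbd6* had at least 10 counts in 8 of 8 libraries at P1 and in 0 at P35. The lower counts of both genotypes and of the first KO step are to be read with this limit.

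**Figure D2:**
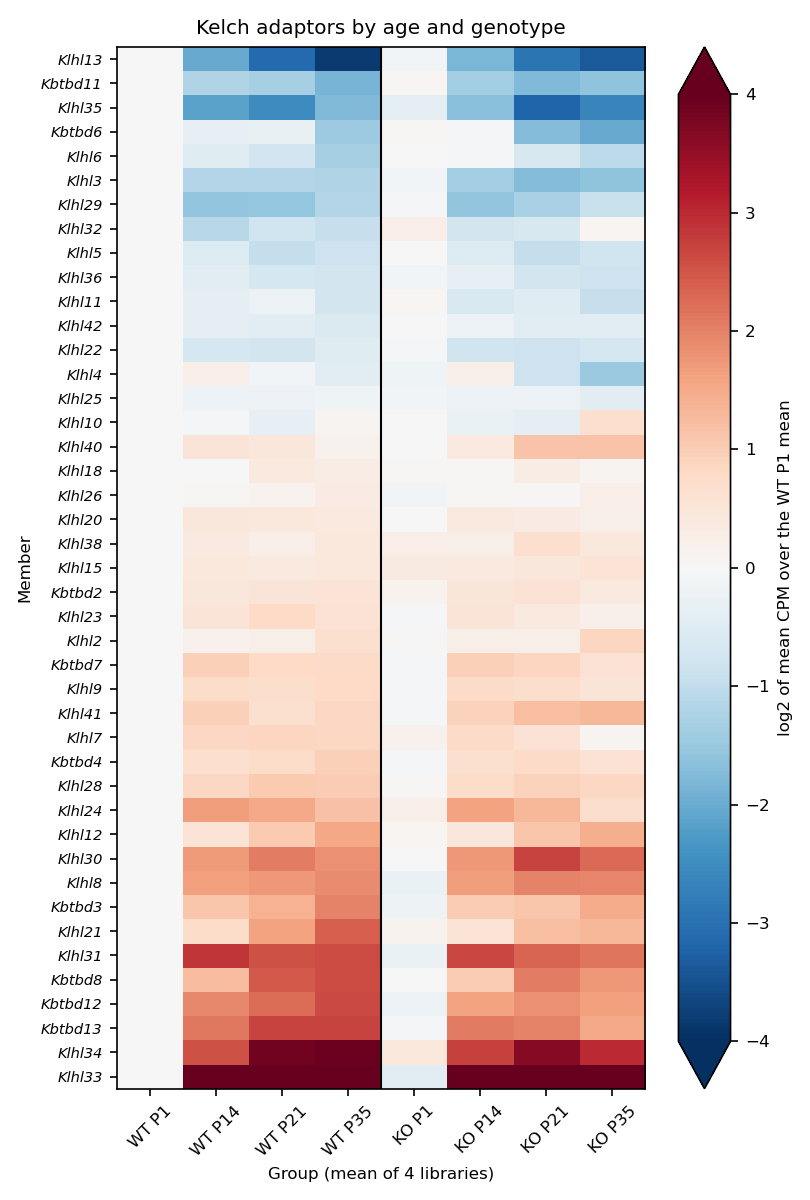
Mean CPM of each group on a log2 scale relative to the WT P1 mean (colour, red higher and blue lower, limited to 4 in each direction), for 43 members with a mean above 0 in all groups, WT on the left and KO on the right of the line. *Klhl33* is the deepest red row from P14 on. *Klhl13* is the deepest blue row at P35 in both genotypes, whereas *Klhl35* is bluer than *Klhl13* in WT at P14 and in KO at P21.

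The first step in KO called 23 members, 16 higher and 7 lower (53.7% of all genes, 24.5% higher and 29.2% lower), with *Klhl33* again widest at 7.46 (SE 0.368). With library totals, which put the median of all genes at −0.81, 8 were higher and 17 lower. From P14 to P21, 8 KO members were called against 5 in WT (9.16% of all genes in KO, 4.06% higher and 5.11% lower). *Klhl40* (0.74, SE 0.158), *Klhl30* (0.96, SE 0.216), *Kbtbd8* (1.04, SE 0.192), *Klhl21* (0.68, SE 0.148) and *Klhl12* (0.67, SE 0.0685) rose, and *Klhl13* (−1.07, SE 0.178), *Klhl4* (−1.07, SE 0.220) and *Kbtbd6* (−1.63, SE 0.411) fell. *Kbtbd6* was at 0.317±0.155 CPM at P14 and shares reads with its neighbour *Kbtbd7*, 20799 bases away, so its value is uncertain. It had at least 10 counts in 8 of 8 libraries at P1, 6 at P14 and 1 at P21. *Kbtbd6* thus passed the rule on counts mainly through the earlier ages, which favours a fall. Its fall is given as a description, and the lower count of this step is to be read with this limit. From P21 to P35, *Klhl2*, whose protein also acts on WNK kinases, rose (0.63, SE 0.123) and *Klhl24* fell (−0.60, SE 0.113), with 6.34% of all genes called, 3.24% higher and 3.1% lower. On library totals *Klhl24* stood at −0.44 and was not called, and 2 members were called, both higher, with the median of all genes at 0.18.

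The difference between the 2 genotypes in each age step was tested as an interaction in 1 fit of all 32 libraries. For the step to P14 and the step to P21 edgeR called 0 of 44 members, against 0.0161% and 0.425% of all genes. At an unadjusted *P* under 0.05 there were 2 and 8 members, against 6.46% and 12.9% of all genes, and DESeq2 also called 0 at both steps. *Klhl40* and *Klhl41* came closest at the step to P21, by 0.80 (SE 0.222, adjusted *P*=0.0675) and 0.57 (SE 0.168, adjusted *P*=0.0877), and with library totals both passed. For the step to P35 1 member was called (0.463% of all genes), *Kbtbd4*, which is described below.

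At P1 and P14 edgeR called no member in KO against WT, 0 of 44 and 0 of 41 tested. The shares over all genes were 0.0442% and 0.0318%. At an unadjusted *P* under 0.05 there were 4 members at P1 (*Klhl15*, *Kbtbd2*, *Klhl7* and *Klhl8*) and 1 at P14 (*Kbtbd12*), against 10.9% and 6.82% of all genes, and DESeq2 called none at either age. Groups did not overlap for 1 member at P1 (*Klhl15*), against 8.62% of all genes, and for 0 at P14, against 4.84%. *Klhl40*, at 68.7 to 129.7 CPM for KO and 89.0 to 126 CPM in WT at P1, and *Klhl33*, at 352 to 681 CPM for KO and 577 to 894 CPM in WT at P14, overlapped between genotypes. Same-numbered libraries deviated together at P14, and *Klhl33* was lower in KO in 4 of 4 such pairs. With the replicate number as a block its difference was −0.47 (adjusted *P*=0.0164) and that of *Kbtbd12* −0.35 (adjusted *P*=0.0134). Neither was called, and these were the 2 of 41 members with an adjusted *P* under 0.05 in that fit, against 5.61% of all genes.

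At P21 1 of 39 members was called, the muscle gene *Klhl40*, against 4.67% of all genes (3.18% higher and 1.5% lower). KLHL40 is a muscle adaptor that protects nebulin and leiomodin 3 from breakdown. In WT it was at 152, 134, 112 and 164 CPM and in KO at 224, 262, 194 and 221 CPM. Every KO library was above every WT library. The fold change was 1.62 (0.70 on the log2 scale, SE 0.125, adjusted *P*=0.00514).

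*Klhl41*, the most abundant member, was at 574, 630, 568 and 678 CPM for WT and 904, 985, 824 and 895 CPM for KO, again with no overlap. Its difference of 0.57 on the log2 scale (SE 0.0852, adjusted *P*=0.00232) passed the *P*-value and lay just under the fold threshold. *Klhl30* was at 138, 146, 199 and 125 CPM for WT and 241, 326, 226 and 160.2 CPM for KO, groups that overlapped (0.66, SE 0.214, adjusted *P*=0.0553).

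The call of *Klhl40* was kept in 3 of 8 fits that left out 1 library. It was lost without WT replicate 1 or 2 or KO replicate 1, 2 or 4. Over the 8 fits the difference ranged from 0.59 to 0.78 on the log2 scale, with an adjusted *P* between 0.00504 and 0.0173.

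Among members that were lower at P21, edgeR fitted to the libraries of this age called none. DESeq2 called *Kbtbd13* (adjusted *P*=0.000212) and *Klhl4* (adjusted *P*=0.00926) lower, and the fit of all 32 libraries called *Kbtbd13* (adjusted *P*=0.00186). *Kbtbd13* was at 37.6, 30.4, 46.2 and 34.8 CPM for WT and 19.3, 27.2, 24.9 and 18.1 CPM for KO, without overlap (−0.72, SE 0.166, adjusted *P*=0.0147). *Klhl21* was at 125 to 166 CPM for WT and 99.1 to 119.8 CPM for KO (−0.39, SE 0.0971, adjusted *P*=0.02). *Klhl4* differed by −0.71 on the log2 scale (SE 0.223, adjusted *P*=0.0494) and *Klhl3* by −0.55 (SE 0.165, adjusted *P*=0.0410). In all, WT and KO did not overlap for 9 of 39 members, 3 higher and 6 lower, against 24.7% of all genes. At an unadjusted *P* under 0.05 there were 14 members, against 35.1%, and at an adjusted *P* under 0.05 there were 7, against 21%. The median log2 fold change was −0.06 over the members and 0.01 over all genes, with 16 members above and 23 below 0. With library totals, which raise the median of all genes by 0.19, 25 were above and 14 below 0. The medians were then 0.13 over the members and 0.2 over all genes.

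At P35 7 of 41 members were called, 1 higher (*Klhl40*) and 6 lower (*Klhl33*, *Kbtbd13*, *Klhl21*, *Kbtbd12*, *Kbtbd8* and *Klhl7*). The share of all genes called was 16%, with 8.49% higher and 7.52% lower, so the members were called about as often as other genes. Library totals raise the median of all genes by 0.40 at this age and called 7 members, 4 higher (*Klhl40*, *Klhl41*, *Klhl13* and *Klhl2*) and 3 lower (*Klhl33*, *Kbtbd13* and *Klhl21*), against 27.9% and 2.09% of all genes. The directions of *Klhl40*, *Klhl33*, *Kbtbd13* and *Klhl21* were thus called on both scalings. The median of the members was −0.16 by TMM and 0.25 by totals, against 0.04 and 0.44 over all genes. The members' median lay below that of all genes, a difference that was not tested. A change of scaling moves both medians by about the same amount, so this holds on both scalings by construction. WT and KO did not overlap for 17 of 41 members, 2 higher and 15 lower, against 39.6% of all genes.

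*Klhl40* was at 137, 122, 95.1 and 109 CPM for WT and 179, 244, 228 and 256 CPM for KO at P35. The KO libraries all lay above the WT libraries, by 1.99-fold (0.99 on the log2 scale, SE 0.139, adjusted *P*=0.000627). *Klhl41* was at 720, 657, 635 and 767 CPM for WT and 1016, 1101, 875 and 960 CPM for KO. Again no library overlapped, and the difference of 0.53 on the log2 scale (SE 0.104, adjusted *P*=0.00323) lay under the fold threshold. In WT at P14 these genes stood at 146±9.22 and 753±69.1 CPM.

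*Klhl33* fell furthest. It was at 636, 458, 616 and 495 CPM for WT and at 286, 124, 234 and 227 CPM for KO, with no overlap. On the log2 scale the difference was −1.32 (SE 0.229, adjusted *P*=0.00182). At P21 the groups overlapped (−0.51, SE 0.186, adjusted *P*=0.0784), and the difference between the 2 ages was not called (−0.81, SE 0.390, adjusted *P*=0.277).

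*Kbtbd13*, whose protein is found at the thin filament and tunes how fast muscle relaxes, was at 31.0, 37.1, 43.7 and 38.5 CPM for WT and 13.8, 18.6, 14.8 and 18.2 CPM for KO. It fell by 1.18 on the log2 scale (SE 0.131, adjusted *P*=0.000221). *Klhl21* was at 254, 211, 285 and 247 CPM for WT and 125, 100.3, 127 and 129 CPM for KO and fell by 1.03 (SE 0.114, adjusted *P*=0.000217). Its KO level at P35 was close to that of KO at P21 (111±10.02 CPM), so the WT rise of *Klhl21* from P21 to P35 had no called counterpart in KO. Whether the 2 steps differ was tested as the interaction and was not called (−0.65, SE 0.208, adjusted *P*=0.0932).

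*Kbtbd12* was at 46.9, 31.3, 28.8 and 36.8 CPM for WT and 20.9, 18.2, 15.0 and 18.5 CPM for KO (−0.96, SE 0.159, adjusted *P*=0.00138). *Kbtbd8* was at 3.94 to 5.94 CPM for WT and 2.51 to 3.01 CPM for KO (−0.85, SE 0.1496, adjusted *P*=0.00193). *Klhl7*, mutated in retinitis pigmentosa, was at 55.1 to 74.3 CPM for WT and 35.4 to 43.2 CPM for KO (−0.70, SE 0.109, adjusted *P*=0.00107). None of these 3 overlapped between genotypes, and all 3 lost the call with library totals, at −0.56, −0.44 and −0.29.

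The promoters of *Klhl33* and *Kbtbd12* are shown as those of the 2 lower members with a MEF2 site (capitals) in the window. *Klhl33* (ENSMUSG00000090799) lies on the minus strand, its window is chr14:50897484-50897733, and 24 of the bases lie in its own first exon in GENCODE. *Kbtbd12* (ENSMUSG00000033182) also lies on the minus strand with the window chr6:88627430-88627679, at a RefSeq start 10521 bases inside the GENCODE gene, and 19 of the bases are exonic.
Klhl33: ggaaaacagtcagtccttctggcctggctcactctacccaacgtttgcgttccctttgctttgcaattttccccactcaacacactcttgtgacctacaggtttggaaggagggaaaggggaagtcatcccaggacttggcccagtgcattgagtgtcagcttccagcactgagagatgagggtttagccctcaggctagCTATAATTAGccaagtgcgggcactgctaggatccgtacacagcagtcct
Kbtbd12: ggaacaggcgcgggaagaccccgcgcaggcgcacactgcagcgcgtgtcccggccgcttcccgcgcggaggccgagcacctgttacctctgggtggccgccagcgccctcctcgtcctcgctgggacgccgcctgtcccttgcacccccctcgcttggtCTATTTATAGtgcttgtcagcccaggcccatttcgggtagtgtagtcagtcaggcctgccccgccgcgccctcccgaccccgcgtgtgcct

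The MEF2 sites begin 50 bases before the start in *Klhl33* and 91 bases before it in *Kbtbd12*. The other member with such a site among the windows counted is *Klhl41*, which stood higher in KO, so the site was present in members of both directions.

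**Figure D3:**
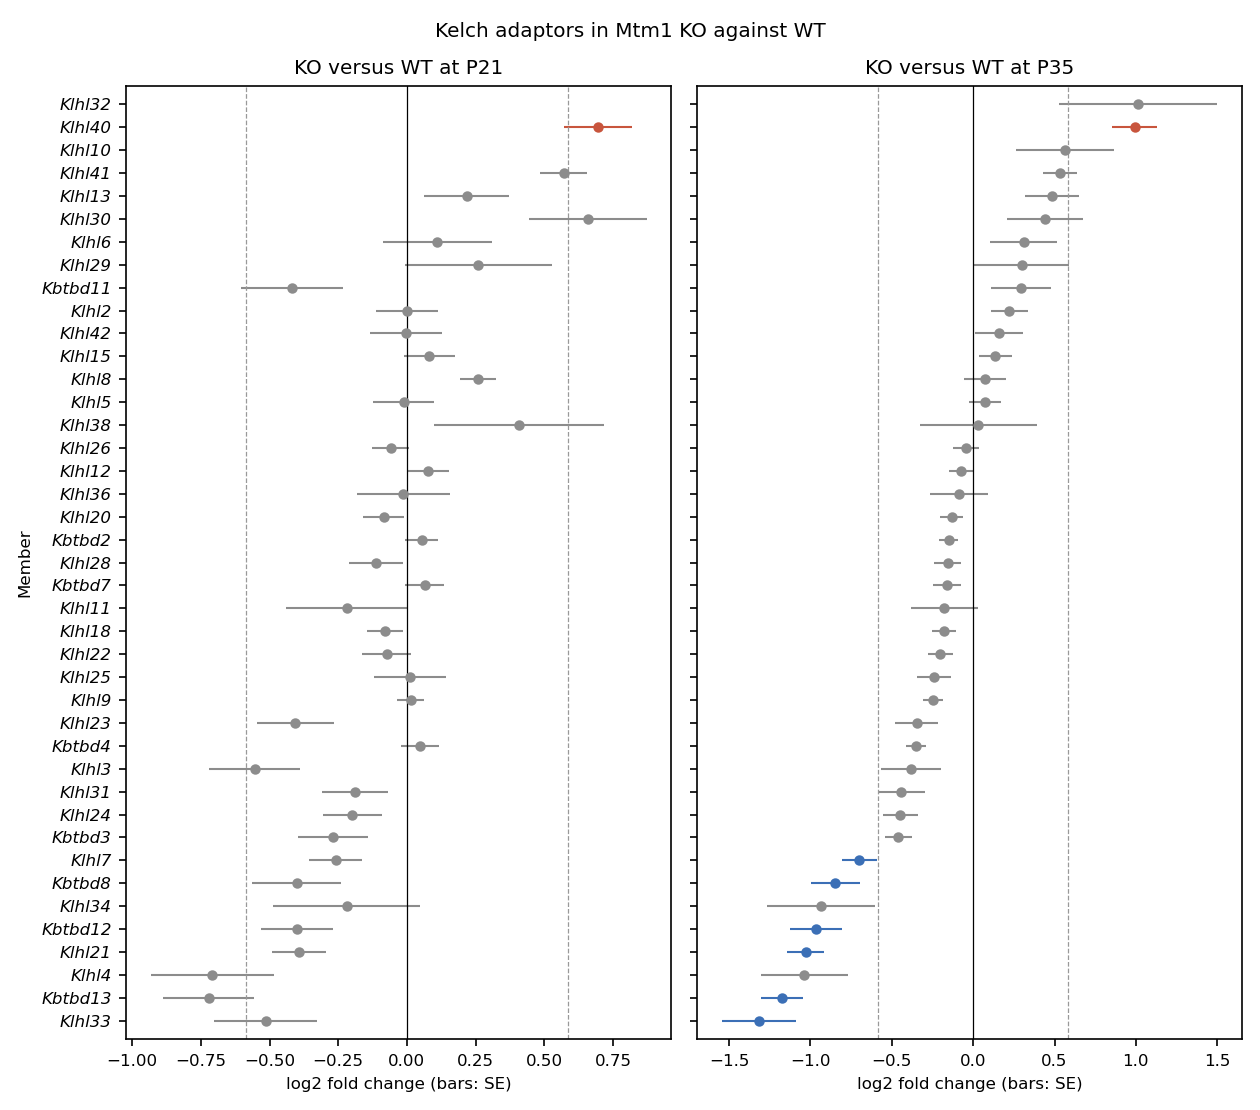
Log2 fold change of KO against WT (horizontal axis) with its SE at P21 (left) and P35 (right), for the 41 members tested at P35 in the order of that age, with red for called higher, blue for called lower and grey for not called. Dashed lines mark the fold limit in both directions, and *Klhl40* is the 1 red point at both ages while the 6 blue points stand at P35.

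Several further members passed the *P*-value at P35 without reaching the fold threshold. *Kbtbd4* (−0.35, SE 0.0605, adjusted *P*=0.00171), *Kbtbd3* (−0.46, SE 0.0844, adjusted *P*=0.00234) and *Klhl24* (−0.45, SE 0.109, adjusted *P*=0.00981) were lower in every KO library than in every WT library, at 17.2±0.213 against 22.3±0.295 CPM, 7.37±0.316 against 10.3±0.603 CPM and 175±25.5 against 242±16.6 CPM. With library totals these became 0.05, −0.06 and −0.04. *Klhl31* was at 464, 447, 346 and 390 CPM for WT and 339, 223, 316 and 316 CPM for KO (−0.44, SE 0.143, adjusted *P*=0.0330). In all 11 of 41 members had an adjusted *P* under 0.01 at any fold, against 24.5% of all genes, and 16 had one under 0.05, against 41.4%. At an unadjusted *P* under 0.05 there were 21, against 50.3%.

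*Klhl4* was at 3.24, 8.99, 7.19 and 7.66 CPM for WT and 3.07, 3.83, 2.89 and 3.15 CPM for KO at P35 (−1.04, SE 0.270, adjusted *P*=0.0130). WT replicate 1 lay among the KO libraries, and without it the difference was −1.27 (adjusted *P*=0.000553, called). *Klhl34* was at 8.52 to 23.2 CPM for WT and 5.48 to 12.7 CPM for KO (−0.94, SE 0.332, adjusted *P*=0.0470). *Klhl13*, which fell in every WT step, was at 8.08 to 10.7 CPM for WT and 10.3 to 16.8 CPM for KO (0.48, SE 0.165, adjusted *P*=0.0410). *Klhl38* did not pass the test, at 10.8 to 30.8 CPM for WT and 9.94 to 25.1 CPM for KO (0.03, SE 0.361, adjusted *P*=0.952), and its libraries spread widely.

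*Kbtbd4*, whose protein targets the CoREST repressor complex, was the 1 member whose KO effect differed between P21 and P35 (−0.41, SE 0.0857, adjusted *P*=0.00976). It was at 18.5 to 19.6 CPM for WT and 18.2 to 21.5 CPM for KO at P21. At P35 it was at 22.1 to 22.7 CPM for WT and 17.0 to 17.4 CPM for KO, without overlap. Its exons overlap *Ptpmt1* over 1657 bases and *Ndufs3* over 88 bases, both on the other strand and with medians of 1346 and 12667 counts against 994 for *Kbtbd4*, and the sources used here do not give whether the counting used strand, so reads of these genes may not be separated. DESeq2 kept this call, whereas RLE size factors, library totals, no filter, the replicate block (adjusted *P*=0.01405) and a fit of only the libraries compared lost it. It was kept in 4 of 32 fits that left out 1 library.

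**Figure D4:**
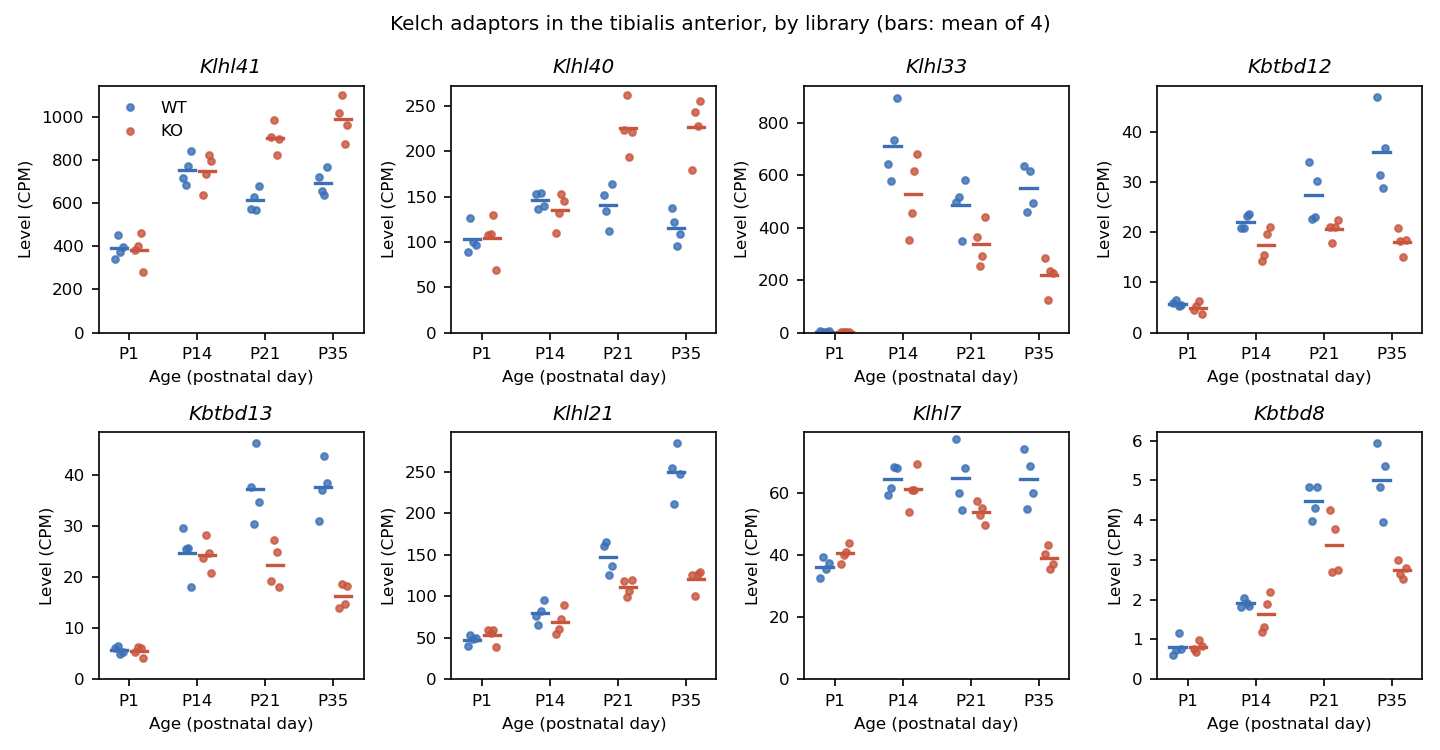
CPM of 8 members in each library (vertical axes linear from 0, a scale for each panel) at P1, P14, P21 and P35, WT in blue and KO in red, with bars at the mean of 4 libraries. The genotypes overlap at P1 and P14 for the members drawn, *Klhl41* and *Klhl40* part upward from P21, and the other 6 lie lower in every KO library at P35.

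The balance between members can be read within a library, free of any scaling between libraries. These pairs were chosen after the levels had been seen, so their ratios are a description without a test. Per kb, *Klhl41* over *Klhl33* was 2.82, 3.57, 2.57 and 3.86 in WT at P35 and 8.85, 22.2, 9.31 and 10.5 in KO. At P14 the ratio was 2.67±0.257 in WT and 3.68±0.710 in KO, and at P21 3.22±0.559 and 7±1.96.

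*Klhl40* over *Klhl21* was 0.861, 0.919, 0.531 and 0.704 in WT at P35 and 2.28, 3.88, 2.87 and 3.16 in KO. From P1 to P35 the WT means of this ratio were 3.43±0.303, 2.96±0.451, 1.53±0.272 and 0.754±0.174. In KO it was 3.10±0.280, 3.16±0.385, 3.27±0.636 and 3.04±0.665 at the same ages. The mean ratio thus declined with age in WT and stayed between 3.04 and 3.27 in KO.

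The adaptors were set beside the machinery they plug into. Of 21 genes of the CUL3 core and of neddylation, the attachment of NEDD8 that switches cullins on, 0 were called at P21 by edgeR (6 at an unadjusted *P* under 0.05) and 1 at P35, against 4.67% (35.1% at an unadjusted *P* under 0.05) and 16% of all genes. With library totals 0 were called at P21, against 7.62% of all genes. At P35 that scaling called 3, all higher, against 27.9% of all genes higher and 2.09% lower. The gene called at P35 by TMM was *Dcun1d2*, a helper of cullin neddylation, at 123±6.57 CPM for WT and 69.5±5.32 CPM for KO (−0.80, SE 0.0763, adjusted *P*=0.000131). *Cul3* was at 349±45.1 CPM for WT and 233±14.5 CPM for KO at P35, without overlap but under the fold threshold (−0.56, SE 0.102, adjusted *P*=0.00228). *Dcun1d2* had also passed the *P*-value at P21 (−0.39, SE 0.0692, adjusted *P*=0.00502), where *Nedd8* (0.29, adjusted *P*=0.034) and *Uba3* (0.21, adjusted *P*=0.0722) did not. *Cand2*, an inhibitor of cullin assembly, was at −0.48 at P35 (SE 0.081, adjusted *P*=0.00151). *Rbx1* was at 82.5±7.82 and 83.7±8.67 CPM. *Nedd8* was at 70.2±6.04 CPM for WT and 99.4±15.1 CPM for KO (0.53, SE 0.112, adjusted *P*=0.00515).

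None of the 10 subunits of the COP9 signalosome, which takes NEDD8 off again, and none of 7 other cullins was called at P21 or P35 by edgeR, with 2 and 3 at an unadjusted *P* under 0.05 at P21 and 4 and 3 at P35. Over all genes 35.1% and 50.3% had such a *P*, and 4.67% and 16% were called. With library totals 1 gene of each list was called higher at P35, against 27.9% of all genes. At P35 the smallest adjusted *P*-values in these lists were those of *Cops9* (0.48 on the log2 scale, adjusted *P*=0.0215), *Cops2* (−0.22) and *Cops3* (−0.19), and of *Cul2* (−0.38, adjusted *P*=0.00167), *Cul5* (−0.43, adjusted *P*=0.00301) and *Cul7* (0.53). At P21 they were those of *Cops9* (0.25), *Cops5* (0.18) and *Cops6* (0.15), and of *Cul5* (−0.26), *Cul1* (0.19) and *Cul7* (0.24). During WT growth from P1 to P14, 13 of the 21 core genes were called higher and 1 lower, against 24.2% and 29.3% of all genes. With library totals 4 were higher and 4 lower, against 8.93% and 56.1% of all genes, and the median of the list went from 0.69 to −0.08. *Cul3* went from 78.9±4.32 to 248±29.5 CPM (1.65, SE 0.103) and was at 0.86 with library totals (adjusted *P*=2.9e-12).

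Of 27 tested substrates and partners of kelch adaptors, 1 was higher at P21, *Dapk1*, a death-associated kinase targeted by KLHL20 (0.77, SE 0.161, adjusted *P*=0.00975), against 4.67% of all genes called. *Tbcb* (0.43, adjusted *P*=0.00448) and *Ikbkb* (0.41, adjusted *P*=0.00779) passed the *P*-value there without the fold. At P35 3 were higher and 3 lower, 22.2% of the list against 16% of all genes (8.49% higher and 7.52% lower). With library totals 11 were higher and 1 lower, against 27.9% and 2.09% of all genes. *Dapk1* (1.28, SE 0.161), *Map1b* (0.91, SE 0.106) and *Tbcb* (0.82, SE 0.138), the latter 2 microtubule and tubulin factors, rose. *Neb* (−0.82, SE 0.158, adjusted *P*=0.00309), *Ulk1* (−0.71, SE 0.115) and *Tiam1* (−1.42, SE 0.247) fell on the TMM scale, where library totals called 1 gene lower. The levels that follow are on the TMM scale too, and library totals raise the median of all genes by 0.40 at this age. *Neb*, the giant thin filament protein that KLHL40 and KLHL41 bind, was at 5741±932 CPM for WT and 3207±431 CPM for KO. *Neb* is also among the 9 fibre markers, whose sum at P35 was 149500 to 210500 CPM for WT and 92810 to 123500 CPM for KO. *Lmod3*, the other client of KLHL40, was at 232±44.2 and 229±35.8 CPM (0.00, SE 0.153, adjusted *P*=0.985).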

How the data were processed

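RNA of TA muscle was measured in 32 libraries, with genotype, age and replicate taken from the sample labels. The authors aligned paired-end reads of directional poly(A) libraries to GRCm38 with STAR 2.6.1 and deposited expected counts per gene from RSEM 1.2.22 (versions per the submitters' processing notes), unscaled, while their methods name HTSeq as the counter. The annotation release is not given in the sources used here. 4.26% of the values were not whole.

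Symbols and exon lengths came from GENCODE M21. Expected counts were rounded and tested in R 4.3.3 with edgeR 4.0.16 (filterByExpr, TMM, glmQLFit and glmQLFTest, two-sided, Benjamini-Hochberg adjustment over all genes). KO was compared with WT within each age over 8 libraries, and ages and interactions in 1 fit of 32 libraries (18583 genes). Calls needed an adjusted *P* under 0.01 and, except for interactions, a difference over 1.5-fold. DESeq2 1.42.0, other scalings, no filter, a replicate block and leaving out each library were alternatives. The scripts were tested on simulated data. Figures used python 3.11.15 and matplotlib 3.10.9.

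The labels do not say that replicates are separate animals, so *P*-values measure the spread between these samples. Counts cover counting error only. No 2 libraries agreed within sampling noise. At P14 same-numbered WT and KO libraries deviated together (correlations 0.486 to 0.840), which comes from the data alone, and the block there gave 0 called members too.

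The members and lists were chosen with earlier results of these data known. Members named are those known from muscle, those called in KO against WT or in an interaction, the 3 highest and 3 lowest called in each WT step and the 5 most abundant, and of each other list those with the smallest adjusted *P* at P21 and P35. Other members named were chosen after their values were seen. The counts of the other lists, the level of *Cul3* and the summed level of the members with library totals were added after seeing the data. The list of kelch BTB adaptors under other symbols is not reported here.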

Additional observations from a re-analysis of the deposited data

Results flagged for a closer look

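Over 128 sets of 4 libraries (the 16 members chosen by the naming rule, in 8 groups), 6 libraries stood apart from the other 3 of their group by Dixon's test, where chance alone flags about 1 set in 20. Other members named in the text were not screened. *Klhl21* was at 100 CPM in KO replicate 2 at P35 against 125 to 129 CPM, and *Klhl30* at 135 CPM in KO replicate 3 at P14 against 117 to 119 CPM. *Klhl34* was at 9.49 CPM in WT replicate 4 at P14 against 4.77 to 5.15 CPM. *Klhl35* was at 0.0198 CPM in KO replicate 4 at P14 against 0.131 to 0.151 CPM. *Klhl14* was at 0.0453 CPM in KO replicate 1 at P21 and at 0.0153 CPM in KO replicate 3 at P35, against 0 in the other 3 libraries of each group, at 2 counts and 1 count. The KO effect on *Kbtbd4* differed between P35 and P21 by −0.41 on the log2 scale in the edgeR interaction test.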

How the results depend on the processing

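Every value here is a count of members called, with the reported one in brackets. At P21 (1) DESeq2 gave 3, library totals 2, no filter on low counts 2, all 32 libraries in 1 fit 2 and an adjusted *P* under 0.05 without a fold limit 7, and at P35 (7) the last gave 16. Fitting only the libraries compared gave 3 for WT P21 against P14 (5) and 1 for WT P35 against P21 (2), where library totals also gave 1. No filter gave 1 for KO P35 against P21 (2). Library totals gave 2 for the change of the KO effect from P14 to P21 (0). For that from P21 to P35 (1) RLE size factors, library totals, no filter, the replicate block and only the libraries compared each gave 0. Blocking on the replicate number changed no other call count by over 1.5 times. At P1, P21 and P35, 0, 2 and 2 of 4 same-numbered pairs correlated above 0.1, with mean correlations of −0.21, 0.127 and 0.0686. Whether some libraries were paired at these ages was not tested. Leaving out 1 library gave 0 calls at P1 and P14 in every fit, 0 to 2 for the P21 comparison and 7 to 8 for the P35 one. For the WT steps it gave 24 to 25, 3 to 5, 1 to 3 and, over the whole span, 29 to 32. For KO it gave 21 to 24, 6 to 9, 1 to 3 and 28 to 31, and for the 3 interactions 0, 0 and 0 to 1. Leaving out the P1 library with the most keratinocyte RNA of each genotype, chosen after seeing the data, moved no count by over 1.5 times. Of the fold changes recomputed for single members, 280 kept their side of the threshold, 41 lost and 17 gained a call and 0 reversed. Members of a few counts are limited by depth.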

Other observations

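Other relatives of the adaptors were examined beside them. Of 26 BTB adaptors of CUL3 without kelch repeats, 0 were called at P21 by edgeR (12 at an unadjusted *P* under 0.05), against 4.67% of all genes called and 35.1% with such a *P*, and at P35 2 were higher and 2 lower in KO, 15.4% against 16% of all genes. With library totals 6 were higher and 0 lower at P35, against 27.9% and 2.09% of all genes. *Kctd2* and *Abtb1* had passed the *P*-value at P21 without the fold (0.52, adjusted *P*=0.00636, and 0.51, adjusted *P*=0.00956), and *Spop* stood at −0.26. At P35 *Kctd2* (0.72, SE 0.0808) and *Kctd13* (0.64, SE 0.141), the latter encoding an adaptor for RhoA, rose from 18.7±1.16 to 30.4±2.48 CPM and from 1.94±0.207 to 2.96±0.236 CPM. *Btbd3* (−0.80, SE 0.130) and *Rhobtb2* (−0.63, SE 0.107) fell from 45.01±6.91 to 25.4±3.33 CPM and from 43.1±5.71 to 27.4±2.44 CPM.

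Of 15 tested proteins with kelch repeats but no BTB domain, 1 was higher at P21 and 5 were higher and 1 lower at P35, against 4.67% and 16% of all genes called. With library totals 7 were higher and 0 lower at P35, against 27.9% and 2.09% of all genes. *Klhdc7a* was at 0.340±0.147 CPM in WT and 1.15±0.266 CPM in KO at P21 (1.77, SE 0.327, adjusted *P*=0.00585) and at 0.245±0.161 and 2.31±1.31 CPM at P35 (3.26, SE 0.577, adjusted *P*=0.00192). *Klhdc8a* (2.05, SE 0.409), *Klhdc8b* (0.77, SE 0.156), *Klhdc1* (0.72, SE 0.1001) and *Klhdc4* (0.63, SE 0.0902) also rose at P35. *Klhdc3*, the most abundant of those called, fell from 200±13.6 to 115±11.0 CPM (−0.77, SE 0.08999). *Klhdc10* was at −0.31 at P21 and −0.50 at P35 (adjusted *P*=0.000514), under the fold limit. KLHDC3 reads the ends of proteins for a CUL2 ligase.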
